A study of Mus musculus with 4 samples.

Results

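Genes of the planar cell polarity core and the Ror receptors, 10 in all, were followed in differentiating myocytes that lacked R-spondin1 and in their wild-type counterparts: Vangl1, Vangl2, Celsr1, Celsr2, Celsr3, Prickle1, Prickle2, Scrib, Ror1 and Ror2. The members were picked by name, 10 of 24011 genes tested, and every symbol matched 1 row of the deposited table through its Entrez gene number. Primary myoblasts were grown from limb muscles of mice on a mixed C57bl6N/sv129 background, either Rspo1-null (the genotype label reads Rpos1-null) or wild-type. After 5 passages the cells were moved to medium with 2% horse serum and harvested 24 h later, and their total RNA was read on Affymetrix whole-transcript mouse arrays. The 2 arrays of each genotype came from separate cultures, called Rspo1-null 1 and 2 and wild-type 1 and 2 here as in the titles. All 4 cultures had the same medium and time, and the labels give neither the age nor the sex of the animals nor the design of the null allele. The study's methods describe young adult mice and satellite cells purified by magnetic sorting before culture.

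Planar cell polarity is the alignment of cells within the plane of a tissue. In the core module the membrane protein Vangl and the cytoplasmic protein Prickle gather on one side of a cell, facing Frizzled and Dishevelled in its neighbor, and Celsr cadherins bridge the membranes of both cells. Scrib is a scaffold that binds Vangl, and Ror1 and Ror2 are receptor tyrosine kinases that bind Wnt5a and act through Vangl2 without β-catenin. In muscle, Wnt7a acting on Frizzled7 and Vangl2 is known to drive the symmetric expansion of satellite stem cells, and R-spondins are known to keep Wnt receptors at the cell surface. The comparison asks whether transcripts of this branch differ once R-spondin1 is missing.

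The targeted gene itself, Rspo1, read 5.29 and 5.33 on the log2 scale in Rspo1-null arrays, against 5.71 and 5.84 in wild-type arrays. Subtracting wild-type from Rspo1-null gave -0.46 (standard error 0.15), with an unadjusted p of 0.0286 and an adjusted p of 0.999 in limma. The sources used here do not say whether its probes lie in the deleted part, so this checks the labels only in part. The arrays also fell into pairs that cross the labels. Xist, a transcript of female cells, had 10.38 in Rspo1-null 1 and 10.39 in wild-type 2, against 4.07 in Rspo1-null 2 and 4.35 in wild-type 1, and the Y-linked genes ran the other way. The same pairs parted the muscle differentiation markers, whose mean log2 value over 10 genes was 9.78 in Rspo1-null 1, 10.78 in Rspo1-null 2, 10.91 in wild-type 1 and 9.51 in wild-type 2. Each genotype label thus held 1 array with Xist and 1 with Y-linked transcripts. Male and female mice were both used in the study's injury experiments, and the sex behind each culture is not given. Whether 2 array labels were exchanged cannot be told from these files, so every difference between genotypes holds for the arrays as labelled. Differences of the members and of the pathway genes that passed are therefore also given within each pair, Rspo1-null 1 minus wild-type 2 (the arrays with Xist) and Rspo1-null 2 minus wild-type 1 (those with Y-linked transcripts). For Rspo1 these were -0.55 and -0.37. Myogenic markers lay above background in 8 of 8 genes, from Pax7 to Mymk, the fusion protein myomaker. Markers of other cells did so in 5 of 9 genes for fibroblasts (Col3a1 led the list, while Dcn, Lum and Pdgfra were all below background), 1 of 6 for endothelium (Vwf), 1 of 5 for macrophages (Cd68), 2 of 4 for Schwann and neural cells (Tubb3 and Rbfox3) and 2 of 6 for epithelium (Krt8 and Krt18).

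Of the 10 genes, 5 had a signal above background: Vangl1, Vangl2, Prickle1, Scrib and Ror2. Background was set at a log2 value of 4.69, the level under which 95% of 1370 odorant and pheromone receptor genes fell, taken as silent in muscle cells, and a gene counted as above it when at least 1 genotype mean reached it. Each of the 5 exceeded it in all 4 arrays. Celsr1, Celsr2, Celsr3, Prickle2 and Ror1 stayed below it in all 4 arrays, so their signal could not be told from that of silent genes at this level. The split was the same in both genotypes. At this level both Vangl genes were above, none of the Celsr genes was, and Prickle1 and Ror2 were above where Prickle2 and Ror1 were not. For all genes tested the share above background was 51.1%. The level matters for this split. At the 90th percentile of the receptor genes, 4.03, Celsr2 joined and 6 of the 10 were above background, and at the 99th percentile, 6.31, 0 of the 10 were. Rspo1, the targeted gene, also exceeded 4.69 in all 4 arrays, with a mean of 5.31 in Rspo1-null arrays. In the same arrays Vangl1 (5.20) and Ror2 (5.13) had lower means, and Vangl2 a similar one (5.33). A signal above this level therefore does not by itself show an intact transcript. Arrays of bulk RNA cannot tell fewer cells of a type from less RNA per cell.

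**Figure D1:**
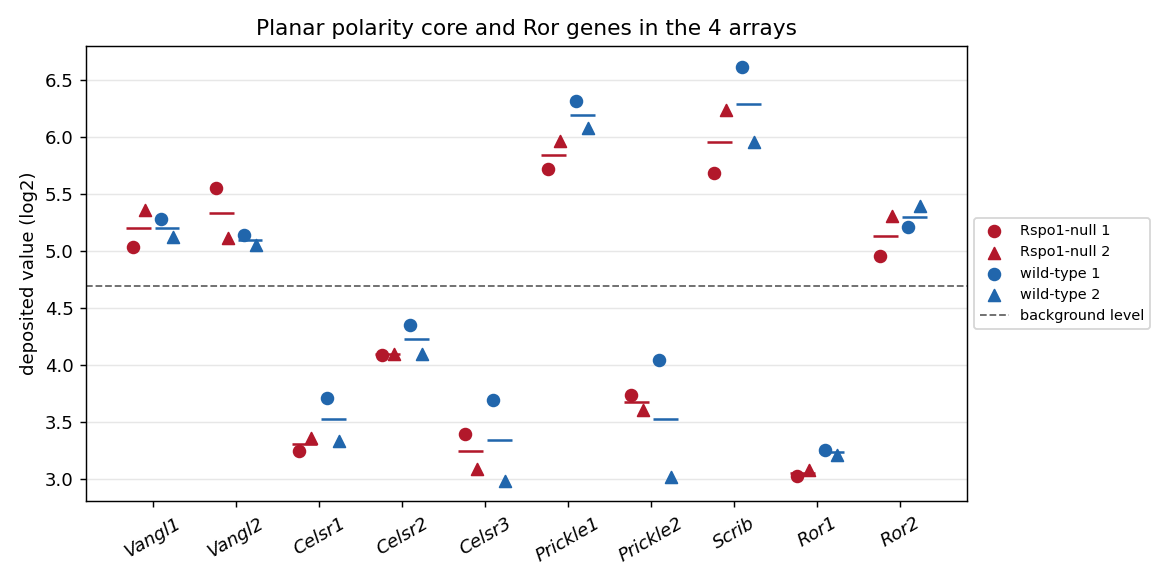
Deposited log2 values (vertical axis) of the 10 genes (horizontal axis) in the Rspo1-null arrays (red) and the wild-type arrays (blue), with circles for replicate 1, triangles for replicate 2, short lines for genotype means and a dashed line at the background level of 4.69. Vangl1, Vangl2, Prickle1, Scrib and Ror2 lie above the line in every array and the other 5 genes below it, and only Prickle1 and Ror1 have both Rspo1-null points below both wild-type points.

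In limma, which borrows spread from other genes, no member passed the test between Rspo1-null and wild-type myocytes: 0 of 10 passed an unadjusted p of 0.05, where 3.17% of all genes tested did, and 0 of 10 passed an adjusted p of 0.05, where 0% of all genes did. The unadjusted p-values of the members ran from 0.108 (Prickle1) to 0.98 (Vangl1). Among all genes, 288 were higher and 472 lower at the unadjusted threshold, 1.2% and 1.97% of those tested, a split that turned to 435 higher and 317 lower after median centring and to 346 and 337 after cyclic loess. The members' means were higher in Rspo1-null arrays for 2 genes and lower for 8, of which Vangl1 changed sign after either scaling. Their median difference was -0.15 on the log2 scale, against -0.03 for all genes tested, and the median without wild-type 1 was -0.002, so that this shift rests on that array; without wild-type 2 it was -0.32. After median centring the members' median was -0.10 against 0.03 for all genes, and after cyclic loess it was -0.07 against 0.0055. The intervals show what 2 arrays a genotype could resolve: the 95% limits lay between 0.37 (Ror1) and 0.97 (Prickle2) on either side of the estimate. For 8 of the 10 genes, all but Prickle2 and Scrib, these limits stayed within 1 log2 unit of no difference. Celsr1, Celsr2, Celsr3 and Ror1 among them were below background, so their limits describe the array signal and do not bound a change in transcript.

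**Figure D2:**
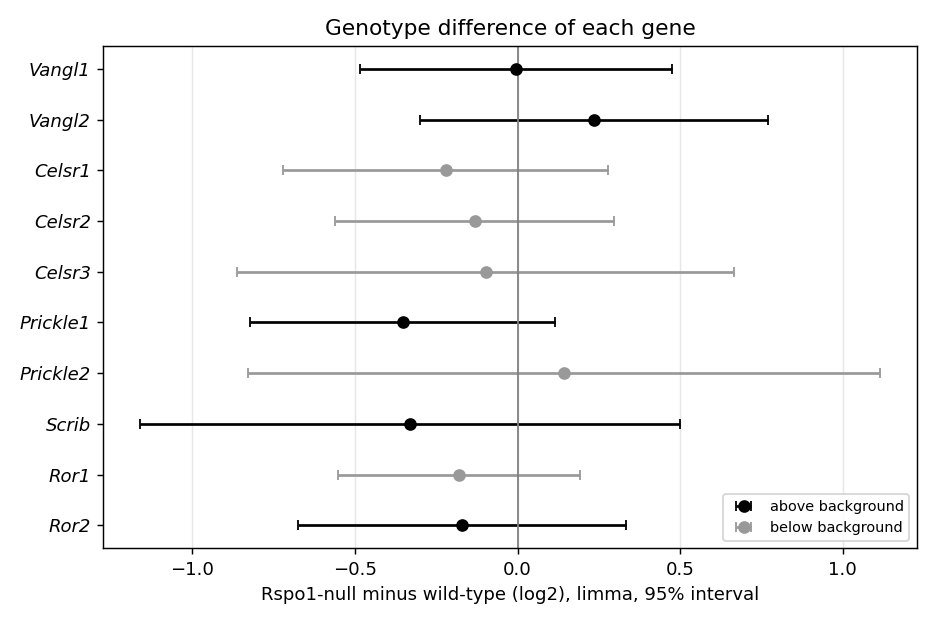
Log2 difference, Rspo1-null minus wild-type (horizontal axis), for each of the 10 genes (vertical axis), with points for the limma estimate and bars for its 95% interval; black marks genes above background and gray those below. Every interval includes 0, and the bars are widest for Prickle2 and Scrib.

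Vangl1 and Vangl2 are multi-pass membrane proteins at the center of the polarity core. Vangl2 (Entrez gene 93840) had log2 values of 5.55 and 5.11 in Rspo1-null arrays, against 5.14 and 5.05 in wild-type arrays. Rspo1-null 1 stood above the other 3 arrays, and Rspo1-null 2 lay between the wild-type arrays. The means were 5.33 ± 0.31 in Rspo1-null and 5.10 ± 0.07 in wild-type arrays (SD, n = 2 each), a difference of 0.23 (95% interval -0.30 to 0.77, unadjusted p = 0.305 in limma). As a ratio, Rspo1-null over wild-type, this is 1.18, with limits of 0.812 and 1.71. Without Rspo1-null 1 the difference was 0.01, so the estimate comes almost wholly from that array. The pair with Xist gave 0.50 and the pair with Y-linked transcripts -0.03.
Vangl1 (Entrez gene 229658) had 5.04 and 5.36 in Rspo1-null arrays, against 5.28 and 5.12 in wild-type arrays. The wild-type values fell inside the range of the Rspo1-null values. With means of 5.20 in both genotypes, the difference was -0.0048 (95% interval -0.48 to 0.47, unadjusted p = 0.98 in limma). Its limits correspond to ratios of 0.715 and 1.39. The sign of so small a value turned after median centring (0.05) and after cyclic loess (0.04). In both arrays with Xist, Vangl1 was lower than in both others, and the pairs gave -0.08 with Xist and 0.07 with Y-linked transcripts.

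Prickle proteins carry LIM domains and bind Vangl on the cytoplasmic face of the membrane. Prickle1 (Entrez gene 106042) was the member above background whose genotypes did not overlap, with 5.72 and 5.96 in Rspo1-null arrays, against 6.31 and 6.08 in wild-type arrays. Both Rspo1-null arrays lay below both wild-type arrays, by a gap smaller than the distance between arrays of either genotype. The means were 5.84 ± 0.17 in Rspo1-null and 6.20 ± 0.16 in wild-type arrays (SD, n = 2 each). The difference of -0.35 had a 95% interval from -0.82 to 0.11 and an unadjusted p of 0.108 in limma (adjusted p = 0.999), which is a ratio of 0.783 with limits of 0.566 and 1.08. It was close to equal in the pairs, -0.36 with Xist and -0.35 with Y-linked transcripts. It stayed between -0.47 and -0.23 when 1 array was left out. A larger absolute difference was found in 14.2% of all genes tested.
Prickle2 (Entrez gene 243548) had 3.74 and 3.61 in Rspo1-null arrays, against 4.05 and 3.01 in wild-type arrays, all below background. The wild-type arrays were the highest and the lowest of the 4, and both Rspo1-null arrays lay between them. Its difference of 0.14 (95% interval -0.83 to 1.11, unadjusted p = 0.718 in limma) depended on which wild-type array was kept: it was 0.66 without wild-type 1 (unadjusted p = 0.0315 in limma, adjusted p = 1, where 2.3% of all genes passed the unadjusted threshold) and -0.37 without wild-type 2.

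Celsr proteins are large cadherins with a multi-pass membrane segment that hold the complexes of neighboring cells together. None of the 3 genes rose above background in any array. Celsr1 (Entrez gene 12614) had 3.25 and 3.36 in Rspo1-null arrays, against 3.71 and 3.34 in wild-type arrays. Celsr2 (Entrez gene 53883) had 4.09 and 4.10 in Rspo1-null arrays, against 4.35 and 4.10 in wild-type arrays. Celsr3 (Entrez gene 107934) had 3.40 and 3.08 in Rspo1-null arrays, against 3.69 and 2.98 in wild-type arrays. In each of the 3 genes wild-type 1 was the highest array, while wild-type 2 was close to or below the Rspo1-null arrays, so the genotypes overlapped. Their differences were -0.22, -0.13 and -0.10 for Celsr1, Celsr2 and Celsr3, with unadjusted p-values of 0.301, 0.459 and 0.75 in limma. Without wild-type 1 the difference of Celsr3 was 0.26, and those of Celsr1 and Celsr2 were -0.03 and -0.0033. Within the pairs Celsr1 had -0.09 with Xist and -0.35 with Y-linked transcripts, and Celsr2 had -0.01 with Xist and -0.25 with Y-linked transcripts. The epithelial, endothelial, macrophage and muscle differentiation marker lists also had their highest mean in wild-type 1. The fibroblast, the Schwann and neural and the myogenic lists did not. Among all genes below background, wild-type 1 was the highest array in 42.7%. For the 6 epithelial markers the mean log2 value was 4.17 and 4.26 in Rspo1-null arrays, against 4.54 and 4.28 in wild-type arrays, with Epcam, Cdh1, Krt5 and Krt14 below background. For the 6 endothelial markers it was 3.81 and 3.71 in Rspo1-null arrays, against 4.01 and 3.82 in wild-type arrays, and for the 5 macrophage markers 3.85 and 3.88 in Rspo1-null arrays, against 4.14 and 3.98 in wild-type arrays. The part of these cell types in the Celsr values was not tested.

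Scrib (Entrez gene 105782) encodes a scaffold with PDZ domains that links Vangl to the cell cortex and, in satellite cells of mice, is known for its part in asymmetric fate. It had 5.68 and 6.23 in Rspo1-null arrays, against 6.62 and 5.96 in wild-type arrays. Rspo1-null 1 was lowest and wild-type 1 highest, and the other two arrays lay between them with Rspo1-null 2 above wild-type 2. The means were 5.96 ± 0.39 in Rspo1-null and 6.29 ± 0.47 in wild-type arrays (SD, n = 2 each), a difference of -0.33 (95% interval -1.16 to 0.50, unadjusted p = 0.346 in limma). The distance between arrays of one genotype, 0.55 in Rspo1-null and 0.66 in wild-type cultures, exceeded it. Within the pairs the differences were -0.28 with Xist and -0.38 with Y-linked transcripts, both lower in Rspo1-null. Without wild-type 1 the difference was -0.0008. The 2 arrays with Xist were lower than the remaining ones, by 0.61 on average. The muscle differentiation markers were lower in the same arrays, and their part in the Scrib values was not tested.

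Ror2 and Ror1 are receptor tyrosine kinases with an extracellular domain related to Frizzled, known as receptors for Wnt5a. Ror2 (Entrez gene 26564) had 4.96 and 5.31 in Rspo1-null arrays, against 5.21 and 5.40 in wild-type arrays. Rspo1-null 1 was lowest, and Rspo1-null 2 lay between the wild-type arrays. The means were 5.13 ± 0.25 in Rspo1-null and 5.30 ± 0.13 in wild-type arrays (SD, n = 2 each), a difference of -0.17 (95% interval -0.67 to 0.33, unadjusted p = 0.416 in limma), a ratio of 0.888. Without Rspo1-null 1 the difference was 0.0054. The pairs went opposite ways, with -0.44 for the arrays with Xist and 0.10 for those with Y-linked transcripts.
Ror1 (Entrez gene 26563) had 3.03 and 3.08 in Rspo1-null arrays, against 3.26 and 3.21 in wild-type arrays. All 4 values were below background, and both Rspo1-null arrays lay below both wild-type arrays. Its difference of -0.18 (95% interval -0.55 to 0.19, unadjusted p = 0.264 in limma) was nearly the same in the pairs, -0.18 in each. The standard error of Ror1 was 0.14 in limma, which borrows spread from other genes, and 0.04 in the test named by the study's methods, where Ror1 alone of the members passed (unadjusted p = 0.0368, adjusted p = 1). In that test 4.74% of all genes passed the unadjusted threshold. A larger absolute difference was found in 41.2% of all genes tested.

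Prickle1 and Ror1 were thus the 2 of 10 members whose arrays did not overlap between genotypes, both lower in Rspo1-null. Among all genes tested, 19.1% parted in this direction and 12.1% in the other, so the members' count is close to the background. The arrays of the other 8 members overlapped, as did those of 16523 of the 24011 genes tested. With 2 arrays a genotype, overlap by itself means that the distance within at least 1 genotype is no smaller than the difference. Wild-type 1 was the highest array in 7 of the 10 genes, against 33.8% of all genes tested and 42.7% of genes below background, and in all 5 members below background. Rspo1-null 1 was the lowest array in 7 of 10, against 27.4% of all genes. The 95th percentile of the receptor genes was also highest in wild-type 1: it was 4.60 and 4.59 in Rspo1-null 1 and 2, against 4.90 and 4.75 in wild-type 1 and 2. After cyclic loess wild-type 1 was the highest array in 29% of the receptor genes, against 41.5% before, and in 6 of the 10 members.

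The pairs split the members evenly. In 5 of 10 genes (Celsr1, Celsr2, Prickle1, Scrib and Ror1) the Rspo1-null array was lower in both pairs, against 30.6% of all genes tested. In 0 of 10 it was higher in both, against 23.3%, and in 5 of 10 the pairs had opposite signs, against 45.6%. The largest gap between pairs was that of Prickle2, with 0.73 in the arrays with Xist and -0.44 in those with Y-linked transcripts. Celsr3 followed with 0.41 and -0.61. With the pairs as a block, 0 of 10 members passed an unadjusted p of 0.05 in limma, where 5.35% of all genes did. Across the labels, the 2 arrays with Xist were lower than the remaining ones in 4 members (Vangl1, Celsr1, Celsr2 and Scrib) and higher in 0, against 22.2% and 19.8% of all genes tested. None of the 5 members above background spanned 1 log2 unit over the 4 arrays. The widest was Scrib with 0.94.

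**Figure D3:**
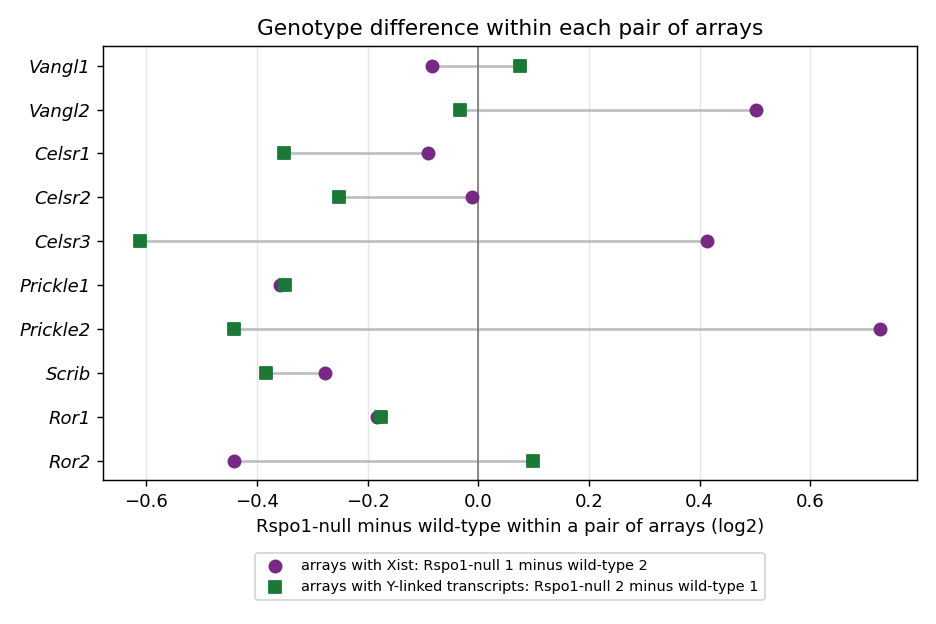
Log2 difference, Rspo1-null minus wild-type (horizontal axis), of each gene (vertical axis) for the arrays with Xist (purple circles, Rspo1-null 1 minus wild-type 2) and for those with Y-linked transcripts (green squares, Rspo1-null 2 minus wild-type 1); each point is a single pair with no error. The points of Prickle1 and of Ror1 nearly coincide, at about -0.35 and -0.18, while those of Prickle2, Celsr3, Vangl2 and Ror2 fall on opposite sides of 0 and far apart.

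The wider pathway was sampled with 61 other genes, of which 59 were measured and 52 lay above background; Dchs2 and Rock2 were not analysed here. At an unadjusted p of 0.05 in limma 2 of the 59 passed, 1 higher and 1 lower, which is 3.39% against 3.17% of all genes, and 0 passed the adjusted threshold. Means were higher in Rspo1-null arrays for 35 genes and lower for 24, with a median difference of 0.06. Gpc4, a glypican that carries Wnt ligands at the cell surface, was higher, with 6.77 and 6.11 in Rspo1-null arrays, against 5.65 and 5.70 in wild-type arrays. Its difference was 0.76 (standard error 0.26, unadjusted p = 0.0352, adjusted p = 0.999 in limma), and both Rspo1-null arrays lay above both wild-type arrays. The pairs gave 1.07 with Xist and 0.46 with Y-linked transcripts. Fzd6, a Frizzled receptor that acts in planar polarity of mouse skin and hair, was lower, with 5.32 and 5.41 in Rspo1-null arrays, against 6.02 and 5.69 in wild-type arrays. Its difference was -0.49 (standard error 0.18, unadjusted p = 0.0448, adjusted p = 0.999 in limma), and the pairs gave -0.37 with Xist and -0.62 with Y-linked transcripts. The call of Gpc4 held with an intensity trend, either scaling and without dim genes (both genotype means below background). It was lost with the replicate number as a block, with the methods' test and whenever an array other than Rspo1-null 2 was dropped. The call of Fzd6 was lost under all of these except without wild-type 2. With the crossed pairs as a block 6 of the 59 passed, Gpc4, Lpp, Dchs1 and Mapk9 higher and Fzd6 and Fzd7 lower, where 5.35% of all genes passed; the adjusted p of each was 0.814 in limma.

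By role, the receptors and co-receptors held both calls among 10 genes, with 4 higher and 6 lower means. Fzd7, the receptor of Wnt7a in muscle cells, had 5.38 and 5.67 in Rspo1-null arrays, against 6.51 and 5.80 in wild-type arrays, a difference of -0.63 (standard error 0.29, unadjusted p = 0.0873, adjusted p = 0.999 in limma). Its wild-type values were 0.72 apart, but both exceeded both Rspo1-null values, and the pairs gave -0.41 with Xist and -0.84 with Y-linked transcripts. By qPCR the study reported the opposite direction, slightly more Fzd7 transcript in Rspo1-null myocytes. That qPCR is shown with the silencing of Fzd7 by small interfering RNA, and its time in differentiation medium is not given. The arrays were of cells at 24 h. What parts the array from the qPCR result was not tested. Of 7 ligands 5 were above background, of which Wnt7b and Wnt11 reached it in only 1 of 4 arrays each. The Rspo1-null mean was higher in 4 ligands and lower in 3, and 0 passed. Wnt7a and Wnt5a, ligands of Fzd7 and the Ror receptors, were below background: Wnt7a had means of 4.02 in Rspo1-null and 4.16 in wild-type arrays, and Wnt5a of 3.81 in Rspo1-null and 3.49 in wild-type arrays. Of 13 cytoplasmic core genes and partners 6 had higher and 7 lower means. The Dishevelled genes Dvl1, Dvl2 and Dvl3 had differences of 0.27, 0.08 and 0.30, with 0 past the threshold in limma. Both Rspo1-null arrays of Dvl1 lay above both wild-type arrays. Dvl1 passed the methods' test (unadjusted p = 0.0382), where 4.74% of all genes passed. Among 7 genes of the Scrib module Llgl2, a partner of Scrib in apical and basal polarity, came closest, with 4.57 and 4.68 in Rspo1-null arrays, against 4.28 and 4.21 in wild-type arrays (difference 0.38, unadjusted p = 0.0511, adjusted p = 0.999 in limma), all below background. It passed in limma after median centring (unadjusted p = 0.0341, adjusted p = 0.996), where 3.13% of all genes passed the unadjusted threshold. It also passed after cyclic loess (unadjusted p = 0.0243, adjusted p = 0.9996 in limma), where 2.84% did. In the methods' test its unadjusted p was 0.0284, where 4.74% of all genes passed. In the Ror partners (4 genes), the polarity effectors (4), the Fat and Dachsous module (4) and the downstream genes (10), 0 passed. The largest differences among these were those of Fat1, a giant cadherin, with 0.70 (standard error 0.62), and Mapk9, a Jun kinase, with 0.53 (standard error 0.31). Fat1 had 9.97 and 9.32 in Rspo1-null arrays, against 8.09 and 9.80 in wild-type arrays, with wild-type 1 well below the other 3 arrays.

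**Figure D4:**
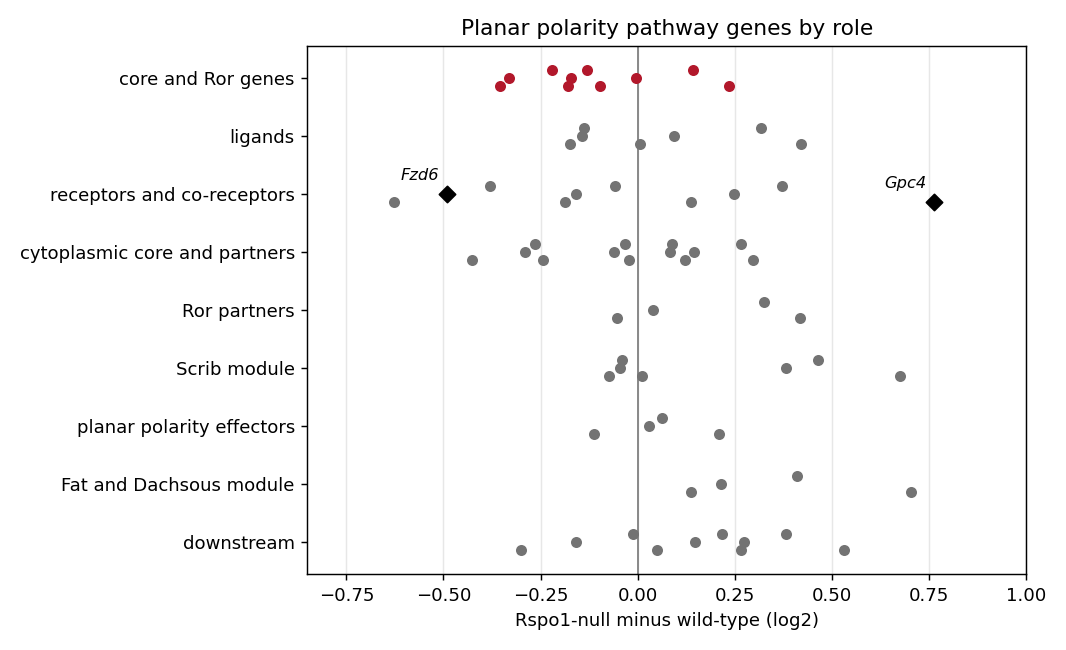
Log2 difference, Rspo1-null minus wild-type (horizontal axis), of the 10 core and Ror genes (red) and of 59 other pathway genes (gray) in rows by role, with small vertical offsets only to separate points; black diamonds mark Gpc4 and Fzd6, the genes with an unadjusted limma p under 0.05. The 10 red points lie between -0.35 and 0.23, inside the span of the other genes.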

How the data were processed

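The deposited table holds log2 values, 1 for each gene and array, which the authors made from Affymetrix scans. RMA and Partek are named in the submitters' processing notes, with no version, and R in the study's methods. No genome build, probe annotation or raw scan was used here. RMA includes a scaling between arrays, after which the medians of the 4 arrays over the genes tested still ran from 4.62 to 4.69, and calls were therefore also made after 2 further scalings.

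Of 24973 rows, 24015 had 1 gene symbol in the platform's table, 958 had none here and 0 had several. Where a symbol had several rows (4 symbols), the brightest on average was used, leaving 24011 genes. Genotypes came from the labels. Rspo1-null minus wild-type was fitted with limma 3.58.1 in R 4.3.3 on all genes with no block, and p-values were adjusted over all of them by Benjamini-Hochberg. P-values of this fit rest on the spread between 2 cultures a genotype, which limma moderates with the spread of other genes. That spread includes the difference between arrays with Xist and arrays with Y-linked transcripts, since each genotype holds 1 of each. The number of arrays limits the precision.

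The members, pathway genes and marker lists were chosen with earlier results of these data known. Named genes are the members, Rspo1, pathway genes past an unadjusted p of 0.05 and the leading marker of each list. A search for genes with like profiles was to start from members above background that spanned at least 1 log2 unit, and there were 0. Other genes named, such as Fzd7, Wnt7a, Wnt5a, the Dvl genes, Llgl2, Lpp, Dchs1, Mapk9 and Fat1, were chosen after their values were seen. Alternatives were an intensity trend, blocks, median centring, cyclic loess, a filter on dim genes, the methods' test (a per-gene comparison of the genotypes by variance, at an unadjusted p of 0.05), other background levels and leaving out each array.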

Additional observations from a re-analysis of the deposited data

How the results depend on the processing

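None of the members tested passed an adjusted p of 0.05 under any of the 11 alternatives to the limma fit; without dim genes only the 5 members above background were tested. At an unadjusted p of 0.05 the count was 1 with the methods' test (Ror1, where 4.74% of all genes passed) and between 0 and 1 when 1 array was left out (Prickle2, without wild-type 1, where 2.3% of all genes passed), and 0 otherwise. Signs turned for Vangl1 after median centring (0.0482) and cyclic loess (0.0377). With 1 array left out the difference ranged from -0.16 to 0.15 for Vangl1, -0.45 to 0.26 for Celsr3, -0.37 to 0.66 for Prickle2 and -0.35 to 0.0054 for Ror2. The median over the members ranged from -0.32 to -0.002 in these fits. Of the pathway genes, 2 passed in the fit without a block, 1 with an intensity trend, 1 without dim genes and between 1 and 8 with 1 array left out, the 8 without wild-type 2, where 7.13% of all genes passed against 3.17% with all arrays. Over all genes, 3.47% passed with an intensity trend and 2.28% without dim genes. After either scaling 2 pathway genes passed, Gpc4 and Llgl2, where 3.13% (median centring) and 2.84% (cyclic loess) of all genes did. The methods' test also gave 2, Dvl1 and Llgl2, where 4.74% of all genes passed. With the replicate block 0 passed, where 1.67% of all genes did. Same-numbered arrays deviated against each other (correlation -0.358 across genes). The crossed pairing, which follows Xist, gave 6, and 1284 genes in all against 760 without and 400 with the replicate block. Of the 10 members, 5 were above background in all fits that left out 1 array 6 at the 90th percentile and 0 at the 99th percentile of the receptor genes.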
